A study of Mus musculus with 2 samples.

Results

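Wide peaks of FLAG-tagged Msgn1 were taken from the authors' list of 4087 peaks as the autosomal peaks with end minus start of at least 1000 bp. There were 235 of them among 4043 autosomal peaks. The 4 that lie at the start of chromosome 9, with starts below position 3100000, were set aside as possible repeat signal and are described on their own, which left 231 wide peaks against 3808 narrower ones. The members were thus selected on their width, and the score comes from the same comparison of libraries. Widths and scores are therefore described and not tested.

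Msgn1, or mesogenin 1, belongs to the basic helix-loop-helix transcription factors and is made in the presomitic mesoderm, the embryonic tissue that is cut into somites and later gives vertebrae, skeletal muscle and dermis. Mouse embryos without it form almost no trunk paraxial mesoderm. Factors of this family bind DNA as dimers at short motifs called E-boxes. In chromatin immunoprecipitation followed by sequencing (ChIP-seq), a bound site gives a pile of fragments around it, and the peak caller reports the enriched stretch. Its reported width can vary with the strength of the enrichment, the length of the fragments and the number of bound sites close together.

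The data came from 1 ChIP library and 1 input library of A2lox FMsgn1 embryonic stem cells (strain C57BL/6 in the labels), in which doxycycline switches on FLAG-Msgn1. Both groups were embryoid bodies that received doxycycline at 1 ug/ml after 2 days of differentiation and were taken at 36 h. The ChIP used the M2 antibody against FLAG, and the input group had no antibody. Neither group is uninduced or lacks the tagged protein, and the factor is forced on in 1 cell line. With 1 library per group there is no replicate error. Intervals below are 95% exact binomial intervals unless another method is named. They cover counting error only, and they treat peaks as independent although all come from the same 2 libraries and some lie side by side. Positions are as the authors list them, in mm9 per the submitters' processing notes, printed 1-based. No gene annotation or sequence of that build was used here, so no peak is assigned to a gene. The depth behind a peak is unknown.

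The wide peaks made up 5.72% of the 4039 autosomal peaks and 9.27% of the bases these covered (264 kb). Most lay close to the limit. Their median width was 1074 bp, with quartiles of 1033 and 1169 bp, against a median of 664 bp for the narrower peaks. The first 100 bp above the limit held 134 of them (58.0%), and the next 100 bp another 44. Only 8 of the 231 reached 1500 bp. Just inside the limit were chr13:29462423-29463422 and chr16:93777818-93778817, of 1000 bp and with scores of 165 and 368, and chr5:74568887-74569887, of 1001 bp with a score of 161. Just outside were 3 peaks of 998 bp: chr13:84708754-84709751 with a score of 174, chr4:87991644-87992641 with 147 and chr14:103338046-103339043 with 408. The scores on either side of the limit overlapped.

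**Figure D1:**
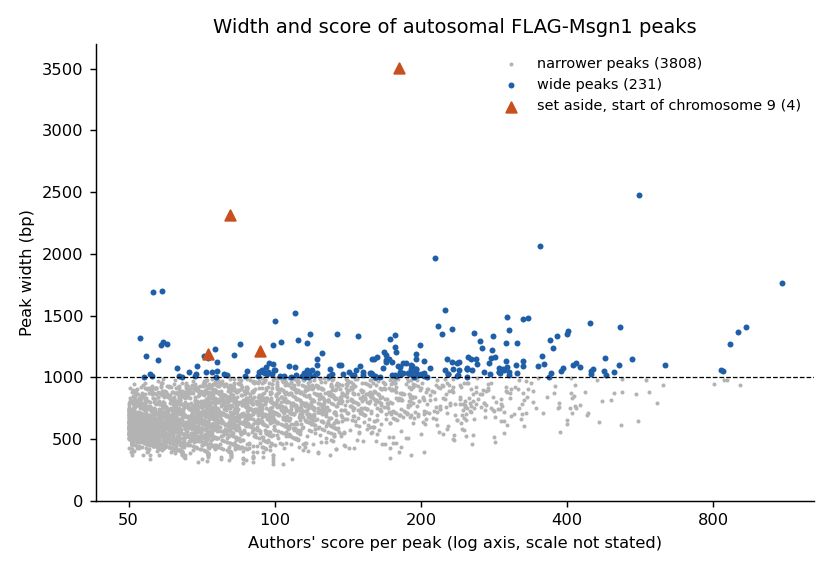
Width in bp (linear axis) against the authors' score (log axis) for every autosomal peak. Grey points are the 3808 narrower peaks, blue points the 231 wide ones and orange triangles the 4 set aside; the dashed line marks 1000 bp, and blue points run from a score of 52.9 to one of 1107.

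Wide peaks were for the most part high-scoring, but not all were. Scores are values of the authors, on a scale that the file does not state, and ranks below run over the 4043 autosomal peaks. The median score of the wide peaks was 181 (order-statistic interval of the median 168 to 195), against 71.1 for the narrower peaks (69.6 to 72.2). Scores of 100 or more belonged to 185 of the 231 (80.1%, interval 74.3 to 85.0%), to 25.6% of the narrower peaks and to 28.7% of all 4039. Nothing is read from this difference, since the rule used the same contrast. At 400 or more there were 24 wide peaks (10.4% of them) and 32 narrower ones (0.840%), against 1.39% of all 4039.

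The share of wide peaks was low over most of the score range and highest at its top. In the lowest decile of the list, with scores up to 52.6, none of 406 peaks was wide, and the upper bound of the interval was 0.904%. From the second to the sixth decile, the share lay between 0.990% and 1.99%. It was 3.47% in the seventh, 6.68% in the eighth, 9.65% in the ninth and 30.4% in the highest decile, which held 123 of the 231. Seen from the other side, 6 of the 10 highest-scoring peaks were wide, as were 41 of the top 100 and 139 of the top 500. Even in the highest decile, 281 of 404 peaks were narrower than 1000 bp, among them chr2:26341867-26342806, of 940 bp and ranked 3rd.

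**Figure D2:**
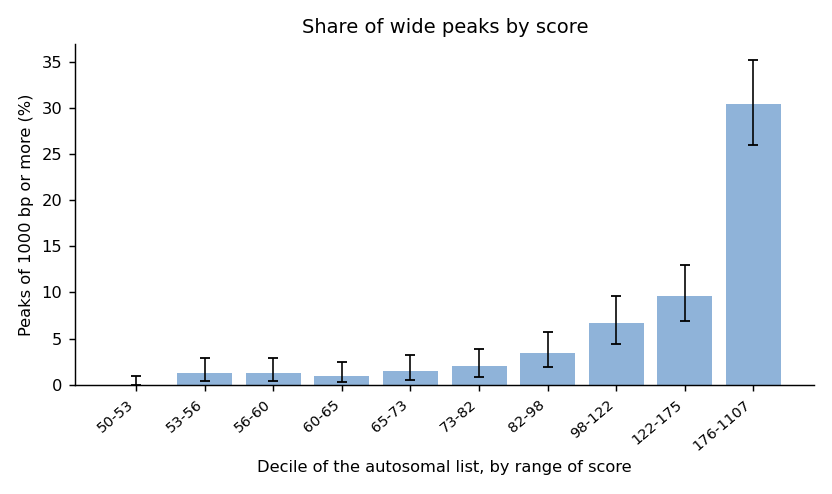
Bars give the percentage of peaks that were at least 1000 bp wide in each decile of the autosomal list by score, and whiskers the 95% exact binomial interval. The bar is at 0 in the lowest decile and at 30.4% in the highest.

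The highest-scoring wide peaks were spread over the genome: the top 15 lay on 12 chromosomes. The leading one, chr3:130820546-130822307, was 1762 bp wide and scored 1107. It had its nearest neighbour 40.3 kb away. The next, chr18:67595531-67596941, was 1411 bp wide with a score of 934 and a neighbour at 49.1 kb. The peak at chr14:29188857-29190226 was 1370 bp wide, scored 900.4 and lay 1.11 kb from another. By contrast, chr13:57463295-57464567, 1273 bp wide with a score of 867, had no other peak within 713 kb. These 4 leading peaks thus ranged from closely accompanied to isolated.

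Most of the following ones were nearer the width limit. The peak at chr17:15577098-15578149 was 1052 bp wide and scored 837, and chr1:7010407-7011462 was 1056 bp wide and scored 831. The peak at chr7:103315129-103316228 was 1100 bp wide and scored 637. A width of 2474 bp set chr2:84971004-84973477 apart, the widest of the 231, with a score of 563. The remaining 7 of the top 15 scored from 478 to 545. They were chr11:65116764-65117914, chr6:108259113-108260520, chr8:122931667-122932762, chr6:83161289-83162330, chr5:31039580-31040601, chr7:133928330-133929489 and chr18:38735438-38736487. Of the 15, 8 had another peak within 50 kb, as did 30.1% of all 4039 autosomal peaks and 38.8% of the wide peaks in the top quartile of the list by score. With 15 peaks chosen by score, nothing is read from that count.

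The widest peaks were a partly different set, and only 3 peaks were among both the 15 widest and the 15 highest-scoring. A pair exceeded 2000 bp, chr2:84971004-84973477 and chr17:84550627-84552689, the latter 2063 bp wide with a score of 352. Next came chr17:30773947-30775912, of 1966 bp with a score of 214. After the leading chromosome 3 peak came 2 weak ones. One was chr18:55145206-55146901, of 1696 bp with a score of 58.7 at rank 2942, and the other chr13:23492586-23494277, of 1692 bp with a score of 56.0 at rank 3230. Both were 2.78 times as wide as the median peak of their own decile of the list (609.5 bp). That ratio was 2.80 for the widest peak, in the highest decile, where the median width was 884 bp. The ratios are not directly comparable. The decile of the weak peaks spans scores of 55.96 to 59.81, whereas the highest decile spans 175.66 to 1107. The widest peak was thus set against peaks of widely differing score.

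The others among the 15 widest were between 1411 and 1547 bp. They were chr11:114680532-114682078 (score 224), chr7:148154399-148155922 (110.3), chr11:19886186-19887671 (301), chr10:25106772-25108255 (332) and chr16:16559338-16560812 (325). Then came chr13:44746174-44747630 (100.1), chr1:178924584-178926024 (445), chr16:21701641-21703054 (217) and, in the last place, the chromosome 18 peak that ranked 2nd by score. Within the 231, score and width had a Spearman's rho of 0.235. It was 0.406 within the narrower peaks and 0.466 over all 4039. The limit of 1000 bp narrows the range of widths on each side, so these values are not comparable with each other. They are descriptions of peaks from the same 2 libraries.

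Weak wide peaks were few: of the 231, 10 scored below 60. The lowest were chr2:137029462-137030783, of 1322 bp with a score of 52.9, chr10:115642496-115643500, of 1005 bp with 53.8, and chr2:9906889-9908057, of 1169 bp with 54.2. The others included chr6:51409299-51410326 (score 55.4), chr11:115881884-115883026 (57.6), chr2:123971004-123972268 (58.4) and chr8:10663667-10664950 (58.9). These 10 lie in the lowest and second quartiles of the list by score. In the lowest, with scores up to 57.77, 1 of 7 wide peaks and 27.3% of narrower ones had another peak within 50 kb. In the second, with scores of 57.8 to 72.75, it was 6 of 13 and 30.9%. Of the 10 themselves, 2 had another peak within 50 kb. One of the 2, chr1:77460807-77461819, of 1013 bp with a score of 55.9, lay 430 bp from the 12th-ranked peak of the autosomes, chr1:77459442-77460376, which scored 629.8 and was itself narrower, at 935 bp.

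Somewhat more wide than narrower peaks had a neighbour. Another peak lay within 50 kb, edge to edge, of 85 of the 231 wide peaks (36.8%, interval 30.6 to 43.4%) and of 1132 of the 3808 narrower ones (29.7%, interval 28.3 to 31.2%). Over all 4039 it was 30.1%. The difference was 7.07 percentage points (95% Newcombe interval 0.935 to 13.6). Measured between peak centres, so that a peak's own width does not shorten the distance, the difference was 6.03 points. Its interval, −0.0341 to 12.6, included 0. Edge to edge, the shares were 16.5% against 11.6% at 10 kb, and 72.7% against 63.3% at 200 kb. Within 1 kb the shares were 3.03% and 3.34%, a difference of −0.305 points with an interval of −1.98 to 2.83. The median distance to the nearest peak was 86.0 kb for wide and 121 kb for narrower peaks.

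Scores differed between these peaks too, so the shares were also taken within quartiles of the list by score. In the top quartile of the list by score, with scores from 108 upward, 69 of 178 wide peaks (38.8%) and 271 of 832 narrower ones (32.6%) had a neighbour within 50 kb, a difference of 6.19 points (Newcombe interval −1.39 to 14.1). In the third quartile the shares were 27.3% of 33 and 28.6% of 976. The first and second quartiles held only 7 and 13 wide peaks. Without chromosomes 6 and 18 the difference was 4.92 points (−1.68 to 12.1). The interval in the top quartile includes 0 and reaches 14.1 points, so neither equality nor a difference is shown within that quartile. Its scores run from 108 to 1107, so its peaks are not of like score.

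**Figure D3:**
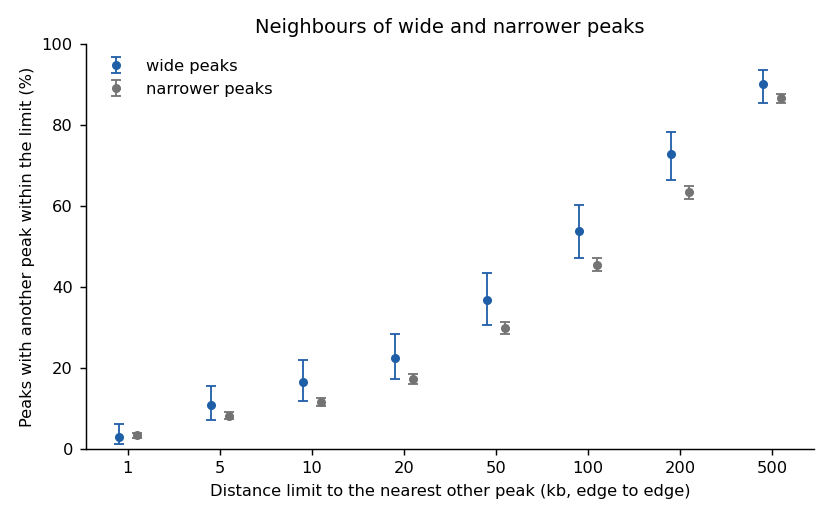
Percentage of the 231 wide peaks (blue) and the 3808 narrower peaks (grey) with another autosomal peak within each distance limit in kb; whiskers are 95% exact binomial intervals. At 50 kb the points are at 36.8% and 29.7%, and at 1 kb their intervals overlap.

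The difference from narrower peaks was larger for wide peaks of 1200 bp or more than for those below 1200 bp. Of the 53 peaks of 1200 bp or more, 26 had another peak within 50 kb (49.1%, interval 35.1 to 63.2%), which is 19.3 points above the narrower peaks (Newcombe interval 6.31 to 32.5). Of the 178 peaks from 1000 bp to just under 1200 bp, 59 had one (33.1%), 3.42 points above (−3.24 to 10.8). Within the top score quartile the corresponding differences were 19.8 points for 42 peaks (4.79 to 34.4) and 1.99 points for 136 peaks (−6.16 to 10.9). Score was still not equal there, since those 42 peaks had a median score of 274 and the narrower ones of that quartile 148. Whether that remaining gap in score bears on the neighbours was not tested. The difference between the width classes themselves was not tested either. Above 1200 bp the share with a neighbour did not rise steadily with width. It was 9 of 21 peaks from 1200 to 1299 bp, 7 of 16 from 1300 to 1399 bp and 7 of 8 from 1400 to 1499 bp. From 1500 to 1999 bp it was 2 of 6, and from 2000 bp upward 1 of 2. Some of these peaks stood in the same run and so count as each other's neighbours.

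Where a wide peak had neighbours within 50 kb, it scored above all of them in 66 of 85 cases (77.6%, interval 67.3 to 86.0%). Among narrower peaks with neighbours it was 474 of 1132 (41.9%, interval 39.0 to 44.8%), but these also had lower scores. In the top score quartile it was 59 of 69 wide peaks (85.5%, interval 74.96 to 92.8%) and 213 of 271 narrower ones (78.6%, interval 73.2 to 83.3%), so the intervals overlapped between peaks of that quartile. Scores were unequal there too. The median was 196 for wide peaks below 1200 bp, 274 for those of 1200 bp or more and 148 for all narrower peaks of the quartile. The 89 narrower peaks within 50 kb of a wide one had a median score of 72.5, and the 3719 other narrower peaks had 70.9. A score of at least 100 was found in 27.0% and 25.5% of them. A single neighbour was found for 63 of the 85 wide peaks and 845 of the 1132 narrower ones, and neighbours on both sides for 12 and 151, which are nearly the same shares.

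Immediate neighbours, within 1 kb, were found for 7 wide peaks. Together with its neighbour, each formed a stretch of 1941 to 2414 bp. The shortest gap was 56 bp, between chr1:179375263-179376275 (score 203) and the narrower peak before it (score 72.1). At chr8:122931667-122932762 the wide peak scored 511 and its neighbour, 453 bp on, 179. The order was the other way round at chr6:108202221-108203248, where the wide peak scored 158 and the neighbour, 244 bp on, 216. The others were chr2:18829543-18830558 (111), chr6:122290213-122291241 (98.8), chr18:38735438-38736487 (478) and the chromosome 1 peak near the 12th-ranked one. When peaks less than 1 kb apart were joined, 289 stretches of 1000 bp or more resulted. Of these, 65 were made of several peaks, 58 of them from narrower peaks alone.

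A larger share of wide than of narrower peaks had another wide peak nearby. A wide peak lay within 50 kb of 17 of the 231 (7.36%, interval 4.35 to 11.5%) and of 89 of the 3808 narrower ones (2.34%, interval 1.88 to 2.87%), a difference of 5.02 points (Newcombe interval 2.26 to 9.15). In the top score quartile it was 13 of 178 (7.30%) and 20 of 832 (2.40%). These 17 stood in 7 runs of peaks, each peak within 50 kb of the next, and 2 of the runs held 7 of them. Without the chromosome 6 run of 7 peaks the difference was 3.47 points. Without that run and the chromosome 18 run of 4 peaks it was 2.23 points (0.142 to 5.81), on 10 wide peaks. Nearness is mutual, so a wide peak counted here gives its wide neighbour a count as well. The intervals for wide neighbours treat these counts as independent and are too narrow. A lower bound just above 0, such as the 0.142 without both runs, therefore does not establish a difference. Across the whole genome the nearest other wide peak was a median of 3056 kb away.

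The richest in wide peaks was the run at chr6:108170077-108260520, with 4 wide peaks among 7. Their widths were 1014, 1028, 1352 and 1408 bp and their scores 63.5, 158, 134 and 515 in order of position. The last of them stood 48.4 kb from the others. At chr18:38724828-38737821, 3 of 4 peaks within 12.99 kb were wide, with scores of 400.1, 97.0 and 478, and the fourth was 905 bp wide. At chr17:15567069-15578149, wide peaks with scores of 190.1 and 837 flanked a narrow one of 503 bp that scored 53.8. The pair at chr6:101213286-101218996 was the most even, with widths of 1074 and 1102 bp, scores of 393 and 411 and a gap of 3.54 kb. The other runs were chr2:52797115-52825681, chr11:19886186-19934439 and chr3:148648928-148686545, with 2 wide peaks each and top scores of 168, 301 and 135.

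**Figure D4:**
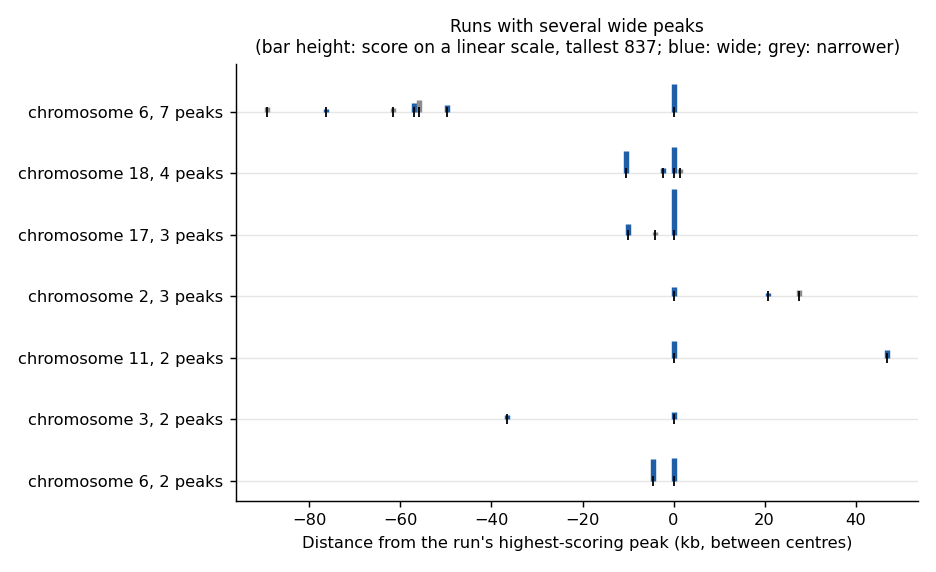
The 7 runs that hold several wide peaks, each drawn from the centre of its highest-scoring peak, with distance in kb on the horizontal axis. Bar height is the authors' score on one linear scale for all runs, blue bars are wide peaks and grey bars narrower ones; the tallest bar, on chromosome 17, is 837.

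Wide peaks were not confined to runs. The most isolated, chr18:44322242-44323339, of 1098 bp with a score of 191, lay 2017 kb from its nearest neighbour. Of the 231, 146 had no other peak within 50 kb, and the share of wide peaks was 5.17% among such single peaks (interval 4.39 to 6.06%), 7.04% among peaks in pairs (5.39 to 9.005%) and 6.87% in runs of 3 or more (4.58 to 9.84%). These intervals overlapped, which does not show that the shares are equal. Pairs and longer runs together are the peaks with a neighbour within 50 kb. For these, the comparison above gave a difference of 7.07 points between wide and narrower peaks (Newcombe interval 0.935 to 13.6). Between peak centres it was 6.03 points (−0.0341 to 12.6). Of the 115 runs of 3 or more, 20 held a wide peak. Along the chromosomes, divided into 5 equal parts from the first to the last peak, the share of wide peaks ran from 5.02% to 6.79% with overlapping intervals.

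The share of wide peaks was 5.65 ± 2.47% (mean ± SD over the 19 autosomes), from 1.86% to 11.5%. The highest was on chromosome 18, where 18 of 156 peaks were wide (11.5%, interval 6.98 to 17.6%). On chromosome 6 it was 22 of 224 (9.82%, interval 6.26 to 14.5%). The lowest was on chromosome 16, with 3 of 161 (1.86%, interval 0.386 to 5.35%). These were the 3 autosomes whose interval did not include the 5.72% of the whole list, and they were picked after all 19 had been seen. Intervals of this kind miss a common value in at most 1 of 20 cases if peaks are independent, which these may not be.

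The scores of the peaks on these chromosomes gave other numbers. From the share of wide peaks in each decile of the list by score, the peaks of chromosome 18 would include 10.6 wide ones (observed 18), those of chromosome 6 would include 12.0 (observed 22), and those of chromosome 16 would include 9.90 (observed 3). Among peaks scoring at least 100, the shares were 28.6% of 49, 29.8% of 57 and 6.25% of 48, in the same order, and 15.98% over all autosomes. The intervals on chromosomes 18 (16.6 to 43.3%) and 6 (18.4 to 43.4%) lay above that value, whereas that on chromosome 16 (1.31 to 17.2%) included it. The 3 wide peaks of chromosome 16 scored from 217 to 368. Among them were both of the chromosome 16 entries in the 15 widest, so that the chromosome with the lowest share held 2 of the widest peaks. With 1 peak kept per run, the share was 12.4% on chromosome 18 (interval 7.26 to 19.4%) and 6.30% over all autosomes. The interval then included the value of all autosomes on chromosome 6 (9.38%, 5.65 to 14.4%), and on chromosome 16 (2.19%, 0.454 to 6.27%) it ended just below it. Of the 3 chromosomes, chromosome 18 was the one whose interval left out the overall share in both settings. On X, 1 of 44 peaks was wide, chrX:55408397-55409425, of 1029 bp with a score of 209.

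**Figure D5:**
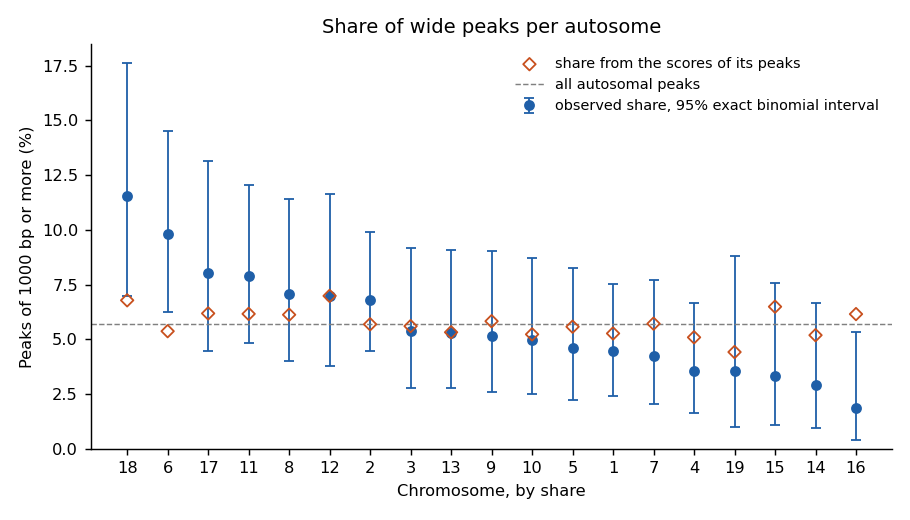
Percentage of peaks of at least 1000 bp on each autosome, in descending order, with 95% exact binomial intervals (blue). Orange diamonds give the percentage that the scores of the chromosome's peaks would give, and the dashed line marks 5.72%; chromosomes 18 and 6 lie above the line with their intervals, and chromosome 16 below it.

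The 4 peaks set aside opened the list of chromosome 9 and spanned 32.9 kb, with 484 kb to the next peak. They covered 8217 bp, and gaps of 2.66 to 18.3 kb separated them. Their widths were 2314, 3503, 1187 and 1213 bp in order of position, at scores of 80.8, 181, 72.9 and 93.1. Of the 4 peaks wider than 2000 bp in the whole list, 2 were among them. Repeats were not examined there, and whether these peaks mark binding of Msgn1 was not tested. With the 4 kept, the median score of wide peaks was 181 and the difference in neighbours within 50 kb was 8.15 points.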

How the data were processed

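The authors deposited 1 list of peaks of the FLAG library over input, whose peak names carry the name of the caller MACS. For MACS settings, MACS version and aligner: not given in the sources used here. CASAVA 1.4, FastQC and mm9 are named, per the submitters' processing notes. The deposited score per peak has no header and no stated scale, and no score lies below 50. It was used to rank and filter peaks within the list. Starts were read as 0-based.

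Width was end minus start, and neighbour distances ran from edge to edge over autosomal peaks. Shares were given 95% exact binomial intervals, and differences of shares Newcombe intervals from Wilson limits. The number of wide peaks given by score was the sum, over a chromosome's peaks, of the share of wide peaks in each peak's score decile. The neighbour count was checked on 20 simulated lists of 1000 peaks with added neighbours and was recovered in 20. Those peaks were evenly spaced, and every added neighbour lay at the same distance, well inside the limit. Runs and distances near the limit were thus not checked. The members and lists were chosen with earlier results of these data known. Peaks named were the 15 highest-scoring, 15 widest and 10 lowest-scoring wide peaks, those within 1 kb of another peak, those in runs with several wide peaks, the 3 on each side of the limit and the most isolated one. Narrower peaks, and the X peak, were named after their values were seen. Comparisons that need genes or sequence of mm9 were planned and not run. Python 3.11.15, numpy 2.4.6, pandas 2.3.3, scipy 1.17.1 and matplotlib 3.10.9 were used.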

Additional observations from a re-analysis of the deposited data

How the results depend on the processing

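The number of wide peaks depends on the limit by construction: 235 at 1000 bp became 1123 at 800 bp, 56 at 1200 bp and 10 at 1500 bp. The median score of wide peaks was above that of narrower ones in 5 of 5 alternatives. These share peaks, and width and score come from the same contrast, so nothing is read from that count. The median of the wide peaks was 203 among peaks scoring at least 100, 109 at a limit of 800 bp, 221 at 1200 bp and 219 at 1500 bp. The last rests on 8 peaks, and its interval of 56.0 to 1107 includes the narrower median of 72.7. The difference in neighbours within 50 kb was 7.07 points and turned to −13.0 in the lowest score quartile and −1.31 in the third, on 7 and 33 wide peaks, and was 15.3 in the second on 13. At a limit of 1200 bp it was 19.2 points against all peaks below that width. In the other 11 of 15 alternatives it stayed between 2.19 and 8.20 points, with intervals that reached below 0 for the top score quartile, for distances between centres, without chromosomes 6 and 18, and for peaks scoring at least 100. Among the latter, the shares of wide peaks were 28.6% on chromosome 18, 29.8% on chromosome 6 and 6.25% on chromosome 16, where the interval (1.31 to 17.2%) included the 15.98% of all autosomes. With 1 peak per run, the interval on chromosome 6 (5.65 to 14.4%) included the overall 6.30%. The difference in wide neighbours was 2.23 points without the 2 richest runs. The cause of these changes was not tested. Alternatives by chromosome or run, the peaks scoring at least 100 with any neighbour, and the wide neighbours in the top score quartile were chosen after seeing the data. Start-site, E-box and repeat alternatives were not run. No paired analysis was possible because each group has 1 library, and for that reason none could be left out.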
